A study of Mus musculus with 6 samples.

Results

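Acetylation of lysine 56 of histone H3 (H3K56ac) was examined at 906 intergenic regions of the mouse genome, out of 11106 peaks (8.16%) in a merged set from mouse embryonic stem cells (mESCs). The 906 regions were chosen by their position and width alone. A peak was kept when it was over 320 bp and under 3 kb wide, when its midpoint lay outside every protein-coding gene body, when that midpoint was more than 3 kb and at most 50 kb from the nearest transcription start site (TSS) of a protein-coding gene, and when it was more than 1 kb from the transcript starts of all other genes. These limits are measured values of the peaks themselves, so widths and distances are given below as a description. The 906 peaks are called intergenic peaks throughout. Genes and TSS came from GENCODE M21, whose coordinates are those of the mm10 build used for the peaks.

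The cells were V6.5 mESCs, an established line, grown on feeder cells in medium with serum and leukemia inhibitory factor (LIF), and infected with a lentivirus carrying shRNA. According to the methods of the study, infected cells were kept in medium with puromycin for some days before analysis. The shRNA was a scramble sequence in one arm (Scramble) and targeted the histone deacetylase gene *Sirt6* in the other (Sirt6 KD). Each of these arms had 2 H3K56ac chromatin immunoprecipitation (ChIP-seq) libraries and 1 library of input DNA. The merged peak set holds only positions on mm10, with no height, read count or library of origin. Scramble and Sirt6 KD were therefore not compared, the sequencing depth behind a peak is unknown, no value has a replicate, and the feeder cells cannot be told apart from the mESCs in it.

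Lysine 56 lies at the edge of the nucleosome core, where the DNA enters and leaves, and in mammals its acetylation is laid down by p300 and CBP and removed by sirtuins such as SIRT6. Histone acetylation away from promoters is a common feature of enhancers, which bind sequence-specific factors and act on genes over a distance. In mESCs grown with LIF, the factors POU5F1, SOX2, NANOG, ESRRB, the KLF family and STAT3 are the best known to occupy such elements, and AP-1, a dimer of FOS and JUN proteins, is a factor of many enhancers in growing cells.

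The sequences that follow come from intergenic peaks nearest to 6 genes of the pluripotency network, and each is shown because it holds at least 1 of the 10 motifs searched. The lists of pluripotency factors and of other embryonic stem cell genes, given below, had 17 and 3 intergenic peaks. Of these, 11 are shown, and the others held none of the motifs. Each stretch is the one around the motif nearest to the midpoint. A peak can hold others outside it, as the *Nanog* peak did with an AP-1 site. *Sox2*, *Nanog*, *Klf2*, *Klf5* and *Sall1* encode transcription factors of mESCs, and *Jarid2* encodes a subunit of the Polycomb complex PRC2. All are reference sequence of GRCm38, the assembly of mm10, written 5′ to 3′ on the strand named, and capitals mark the motifs: the octamer ATTTGCAT of POU factors, the AP-1 site TGACTCA or TGAGTCA, the KLF site GGGTGTGGC, the CTCF core CCACNAGGG, the ESRRB site TCAAGGTCA and the PRDM14 site GGTCTCTAA. The first *Sox2* peak had its octamer 50 bp from the midpoint, 17857 bp downstream of the *Sox2* TSS, and the motif of the second *Sox2* peak lay at its edge. The *Klf5* match lay 440 bp from the midpoint, in a peak with 20.4% of its bases in repeats. Whether any of these matches lay within a repeat was not tested, and lower case does not mark repeats.
*Jarid2*, octamer, chr13:44705561-44705781, plus strand: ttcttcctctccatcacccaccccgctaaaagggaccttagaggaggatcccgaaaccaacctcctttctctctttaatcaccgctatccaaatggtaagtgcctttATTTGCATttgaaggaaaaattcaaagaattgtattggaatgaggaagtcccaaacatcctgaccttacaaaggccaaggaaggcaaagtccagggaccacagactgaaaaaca
*Klf2*, AP-1 site, chr8:72331220-72331440, plus strand: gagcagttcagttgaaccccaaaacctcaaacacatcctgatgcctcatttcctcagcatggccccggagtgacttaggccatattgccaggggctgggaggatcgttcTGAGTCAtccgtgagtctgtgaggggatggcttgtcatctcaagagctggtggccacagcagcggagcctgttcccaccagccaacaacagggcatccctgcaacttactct
*Klf5*, ESRRB site, chr14:99325575-99325795, minus strand: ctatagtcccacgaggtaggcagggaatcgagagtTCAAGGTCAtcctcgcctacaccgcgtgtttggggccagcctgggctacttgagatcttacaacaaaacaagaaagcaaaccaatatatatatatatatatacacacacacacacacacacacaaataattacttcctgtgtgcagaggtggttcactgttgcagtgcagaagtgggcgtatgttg
*Nanog*, CTCF site, chr6:122703029-122703249, minus strand: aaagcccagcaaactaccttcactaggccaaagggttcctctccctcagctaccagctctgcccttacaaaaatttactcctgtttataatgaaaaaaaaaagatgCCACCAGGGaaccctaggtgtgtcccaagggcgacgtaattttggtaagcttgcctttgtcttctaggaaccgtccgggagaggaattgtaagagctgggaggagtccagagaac
*Sall1*, AP-1 site, chr8:89004523-89004743, plus strand: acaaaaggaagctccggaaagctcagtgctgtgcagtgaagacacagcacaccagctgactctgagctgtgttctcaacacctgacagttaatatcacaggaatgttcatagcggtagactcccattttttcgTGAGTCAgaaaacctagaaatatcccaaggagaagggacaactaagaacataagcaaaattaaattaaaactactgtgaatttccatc
*Sall1*, AP-1 site, chr8:89012876-89013096, plus strand: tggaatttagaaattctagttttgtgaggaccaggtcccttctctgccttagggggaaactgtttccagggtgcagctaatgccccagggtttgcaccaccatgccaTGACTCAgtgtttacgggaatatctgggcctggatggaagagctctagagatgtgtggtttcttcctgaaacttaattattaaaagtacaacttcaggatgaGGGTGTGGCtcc
*Sall1*, KLF site, chr8:89015697-89015917, plus strand: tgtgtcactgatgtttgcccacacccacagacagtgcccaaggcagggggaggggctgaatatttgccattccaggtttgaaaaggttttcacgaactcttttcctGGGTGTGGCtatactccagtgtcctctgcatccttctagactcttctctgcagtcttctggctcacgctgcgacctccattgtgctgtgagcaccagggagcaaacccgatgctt
*Sall1*, KLF site, chr8:89052873-89053093, plus strand: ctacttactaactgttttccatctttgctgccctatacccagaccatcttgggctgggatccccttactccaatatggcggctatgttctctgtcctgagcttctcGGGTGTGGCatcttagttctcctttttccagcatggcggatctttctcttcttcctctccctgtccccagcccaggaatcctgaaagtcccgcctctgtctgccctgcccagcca
*Sall1*, AP-1 site, chr8:89063427-89063647, plus strand: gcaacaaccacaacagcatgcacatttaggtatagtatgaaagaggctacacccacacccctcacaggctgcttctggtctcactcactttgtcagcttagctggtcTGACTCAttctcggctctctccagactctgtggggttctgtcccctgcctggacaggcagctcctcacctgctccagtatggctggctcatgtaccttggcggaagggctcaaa
*Sox2*, octamer, chr3:34668202-34668422, plus strand: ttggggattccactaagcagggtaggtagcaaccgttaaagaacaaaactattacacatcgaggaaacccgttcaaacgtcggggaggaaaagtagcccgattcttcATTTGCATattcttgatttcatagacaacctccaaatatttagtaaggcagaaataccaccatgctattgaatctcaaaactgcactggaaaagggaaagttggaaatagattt
*Sox2*, PRDM14 site, chr3:34671294-34671514, plus strand: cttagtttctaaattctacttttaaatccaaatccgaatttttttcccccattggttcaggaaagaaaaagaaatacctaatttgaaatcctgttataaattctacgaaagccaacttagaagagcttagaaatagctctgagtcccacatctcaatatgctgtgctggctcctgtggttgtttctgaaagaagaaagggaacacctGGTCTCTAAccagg

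Over whole peaks, 15 other intergenic peaks of the 906 held an imperfect match to the composite site of SOX2 and POU5F1. These sequences are shown because they let the imperfect matches be compared. The composite was searched as CATTGT, 1 base of any kind, then ATGCAAAT, with at most 2 mismatches in the 14 fixed bases. No intergenic peak held it with fewer than 2 mismatches. There were 16 matches in these 15 peaks, of which 7 had 1 mismatch in each part, 6 had both in the octamer part and 3 had both in the SOX part. The last 3 (nearest to *Olfr761*, *Zfp945* and 1 of those nearest to *Pipox*) contain an intact octamer and count under that motif as well. In 3 peaks, nearest to *Hspe1*, *Mreg* and *Pipox*, the match fell within the central window, the midpoint and 160 bp on either side of it. Those were 0.331% of the 906 peaks, beside 0.440% of windows of that length over all sequence that met the rule for position. No background share was taken over sequence as long as whole peaks. Each line gives the nearest gene and 15 bases on either side of the match, which is in capitals.
*Dtx4*, chr19:12517977-12518021, plus strand: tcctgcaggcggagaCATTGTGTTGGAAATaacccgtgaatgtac
*Fam25c*, chr14:34360105-34360149, plus strand: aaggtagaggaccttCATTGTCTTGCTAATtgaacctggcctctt
*Gm33543*, chr10:95884492-95884536, plus strand: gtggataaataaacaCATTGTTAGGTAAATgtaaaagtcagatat
*Hnrnpu*, chr1:178368298-178368342, minus strand: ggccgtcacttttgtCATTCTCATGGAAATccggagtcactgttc
*Hspe1*, chr1:55108687-55108731, minus strand: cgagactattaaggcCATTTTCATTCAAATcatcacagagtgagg
*Mreg*, chr1:72229153-72229197, minus strand: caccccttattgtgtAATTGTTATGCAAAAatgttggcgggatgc
*Nfyb*, chr10:82778409-82778453, plus strand: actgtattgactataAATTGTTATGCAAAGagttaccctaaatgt
*Olfr761*, chr17:37995652-37995696, plus strand: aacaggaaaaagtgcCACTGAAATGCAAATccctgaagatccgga
*Pipox*, chr11:77875496-77875540, plus strand: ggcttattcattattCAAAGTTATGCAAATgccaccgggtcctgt
*Pipox*, chr11:77876109-77876153, minus strand: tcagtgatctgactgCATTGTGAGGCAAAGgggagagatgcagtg
*Pzp*, chr6:128466264-128466308, plus strand: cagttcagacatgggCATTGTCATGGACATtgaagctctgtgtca
*Ranbp17*, chr11:33527489-33527533, plus strand: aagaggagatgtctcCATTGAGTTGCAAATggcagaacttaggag
*Rps6ka1*, chr4:133900603-133900647, plus strand: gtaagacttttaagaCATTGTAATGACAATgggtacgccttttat
*Spry2*, chr14:105861421-105861465, minus strand: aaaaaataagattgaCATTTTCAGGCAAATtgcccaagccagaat
*Ttc39b*, chr4:83328679-83328723, minus strand: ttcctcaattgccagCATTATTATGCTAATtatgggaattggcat
*Zfp945*, chr17:22876182-22876226, minus strand: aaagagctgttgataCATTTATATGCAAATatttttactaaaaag

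The median width of the intergenic peaks was 732.5 bp (quartiles 566 and 1209 bp), and the median distance to the nearest protein-coding TSS was 14249 bp (quartiles 7428 and 26686 bp). At the limits of the rule, the widest peak kept was 2987 bp, next to one of 3001 bp that was left out, and the widest of those left out as too narrow was 319 bp. The nearest and farthest were 3006 and 49943 bp from a TSS, next to 2947 and 50072 bp outside. The closest to a transcript start of another gene type was 1008 bp away, against 985 bp for the nearest one excluded. Among peaks that met all the other limits, 179 were too narrow, 75 were too wide and 194 were too close to another transcript start. Together the 906 peaks covered 878 kb, or 0.183% of the 481 Mb of sequence that met the rule for position, called eligible sequence here. That sequence was measured in adjoining tiles of the same length as the central window.

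Density fell with distance from the TSS. There were 3.14 intergenic peaks per Mb of eligible sequence at 3 to 5 kb (113 peaks, 95% Poisson interval 2.59 to 3.77), 2.62 at 5 to 10 kb, 1.79 at 10 to 20 kb, 1.72 at 20 to 30 kb and 1.32 at 30 to 50 kb (182 peaks, 1.14 to 1.53). The intervals of the first and last steps did not overlap, whereas those of neighbouring steps did for all pairs but 5 to 10 kb against 10 to 20 kb. Upstream of the TSS lay 617 of the 906 peaks (68.1%, Wilson interval 65.0 to 71.1%), and 65.0% of the tiles. The density was higher upstream in the 3 steps up to 20 kb and higher downstream beyond, with 1.16 per Mb upstream and 1.56 downstream at 30 to 50 kb, and the intervals of the sides overlapped in every step. Density was not adjusted for how well reads map, and repeats made up a mean of 41.4% of bases in the tiles and 20.7% in the peaks. The part of mapping in these densities was not tested. The intervals cover counting error only.

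**Figure D1:**
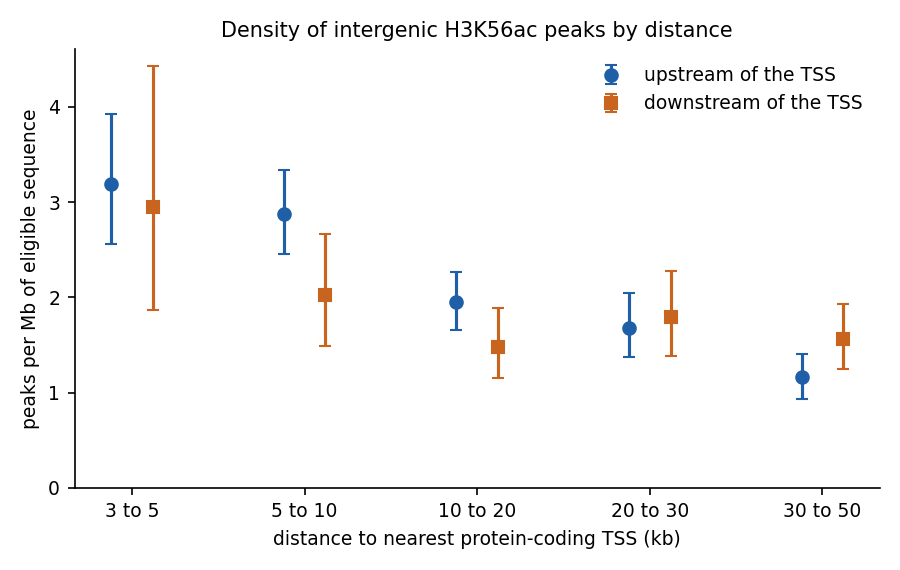
Intergenic H3K56ac peaks per Mb of eligible sequence (vertical axis) in 5 steps of distance to the nearest protein-coding TSS in kb (horizontal axis), upstream (circles) and downstream (squares), with 95% Poisson intervals as bars. Both sides start near 3 per Mb and the upstream points end at 1.16 at 30 to 50 kb.

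Intergenic peaks lay next to genes with H3K56ac at their promoter more often than eligible sequence did. A gene was taken to have a promoter peak when the midpoint of any peak of the whole set lay within 1 kb of 1 of its TSS, which held for 33.9% of the 21938 protein-coding genes. That TSS need not be the one nearest to the intergenic peak. The nearest gene had a promoter peak for 508 of the 906 intergenic peaks (56.1%, Wilson interval 52.8 to 59.3%). Of the tiles of eligible sequence, 25.1% had such a nearest gene. Put as density, there were 4.21 intergenic peaks per Mb where the nearest gene had a promoter peak (121 Mb) and 1.11 per Mb where it had none (360 Mb). With any peak base within 1 kb of a TSS in place of the midpoint, the share was 64.3%. By that rule 35.7% of all protein-coding genes had a promoter peak.

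The share with a promoter peak was above that of the tiles in every step of distance. It was 61.9% at 3 to 5 kb (tiles 26.3%), 58.1% at 5 to 10 kb, 54.3% at 10 to 20 kb, 57.9% at 20 to 30 kb and 50.5% at 30 to 50 kb (tiles 24.6%). The Wilson intervals of the peaks overlapped between the first step (52.7 to 70.4%) and the last (43.3 to 57.7%). Upstream peaks had a nearest gene with a promoter peak in 58.7% of cases and downstream peaks in 50.5%.

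**Figure D2:**
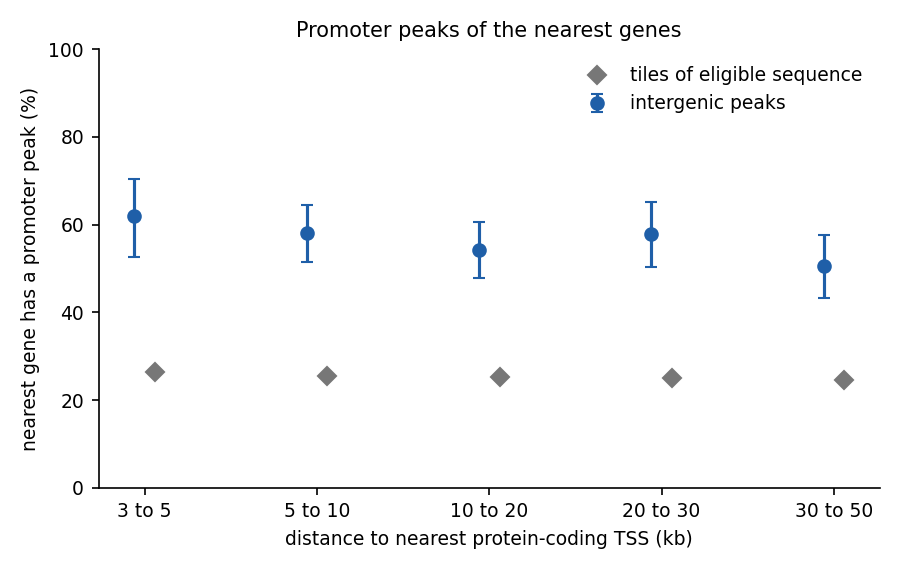
Share of intergenic peaks (circles, with 95% Wilson intervals) and of tiles of eligible sequence (diamonds) whose nearest protein-coding gene has a promoter peak, in percent, by distance to the TSS in kb. The peaks lie between 50.5 and 61.9% and the tiles between 24.6 and 26.3%.

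Promoter CpG content moved with this share. Genes were split by the ratio of observed to expected CpG within 500 bp of their 5′ end, with a ratio over 0.6 called CpG-rich. Where the nearest gene was CpG-rich (584 peaks), 66.6% of intergenic peaks had a nearest gene with a promoter peak, against 46.1% of tiles. Where it was CpG-poor (322 peaks), the shares were 37.0% and 9.16%. The difference from the tiles was thus present in both classes.

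The share was higher than in peaks farther from genes. Remote intergenic peaks, more than 50 kb from a TSS, had a nearest gene with a promoter peak in 136 of 308 cases (44.2%), which was 11.9 percentage points lower than the intergenic peaks (interval 5.45 to 18.2; Fisher's exact test, two-sided p = 0.000351, adjusted 0.00421). Intronic distal peaks, inside gene introns and more than 3 kb from a TSS, had one in 550 of 881 cases (62.4%), 6.36 points above the intergenic peaks (Fisher's exact test, two-sided p = 0.00701, adjusted 0.0403), and this call was lost in 7 of 8 alternatives. Adjusted p-values are Benjamini-Hochberg values over a family of 36 tests. These tests treat peaks as independent, although neighbouring peaks can share a nearest gene. With 1 peak per nearest gene the difference from remote peaks was 10.6 points (Fisher's exact test, adjusted p = 0.0415). Tiles were measured only in eligible sequence, so the share for all remote or intronic sequence is unknown. The differences between classes were not adjusted for it.

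For 398 intergenic peaks the nearest gene had no promoter peak. A different gene with a promoter peak was within 50 kb of 171 of them (43.0%), and within 100 kb of 253 (63.6%). For tiles whose nearest gene had none, these shares were 12.4% and 26.8%. Counting the nearest gene or any other, 679 intergenic peaks (74.9%) had a gene with a promoter peak within 50 kb, against 34.4% of tiles. The median distance to such a gene was 25537 bp for the peaks and 132859 bp for the tiles.

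The 906 peaks had 752 different nearest genes, or 3.43% of protein-coding genes. Of these 752, 410 had a promoter peak (54.5%, Wilson interval 50.9 to 58.0%). Among CpG-rich nearest genes the share was 317 of 475 (66.7%), beside 57.6% of all CpG-rich genes. For CpG-poor nearest genes it was 93 of 277 (33.6%), beside 13.7% of all CpG-poor genes. Most nearest genes, 640, had 1 intergenic peak, 82 had 2, 23 had 3, 4 had 4, 2 had 5 and 1 had 7. The 112 genes with 2 or more had a promoter peak in 64.3% of cases, and the 640 with 1 in 52.8%.

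*Irf2bpl*, a gene for a nuclear zinc finger protein, had the most intergenic peaks of any nearest gene. Counts per gene were not adjusted for the eligible sequence nearest to each gene. That was 70.3 kb for *Irf2bpl* and 37.2 to 78.3 kb among the 10 genes with most peaks. Its 7 peaks lay 3754, 9674, 12910, 14561 and 19939 bp upstream and 13134 and 25618 bp downstream of the TSS, and were 473 to 2432 bp wide. The *Irf2bpl* promoter had a peak of 3417 bp. Of its 5 upstream peaks, all fell in a chain of 6 distal peaks, each within 10 kb of the next, at chr12:86887336-86905127.

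*Ncoa3*, a coactivator of nuclear receptors, and *Sall1*, a zinc finger transcription factor, had 5 each. The 5 *Ncoa3* peaks were all upstream, from 5139 to 24918 bp, and the one at 10393 bp was the widest intergenic peak, at 2987 bp. The *Ncoa3* promoter counted as without a peak, since the midpoint of its 873-bp peak was 1008 bp from the nearest TSS. *Sall1* had peaks 9017 and 19969 bp upstream and 28002, 31501 and 40026 bp downstream. All 5 *Sall1* peaks, 1215 to 2402 bp wide, held an AP-1 or KLF site (shown above), in each case outside the central window. Over whole peaks, 173 of the 906 intergenic peaks held an AP-1 site and 48 a KLF site. The 3 downstream *Sall1* peaks belonged to the longest chain in the set, 8 distal peaks at chr8:89003529-89039056.

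*Klf5*, *Ptma*, *Ndfip1* and *Hist1h2br* had 4 intergenic peaks each. *Klf5*, a KLF transcription factor that responds to LIF, had its 4 peaks downstream, at 26162, 38669, 41579 and 49163 bp. *Ptma*, which encodes the acidic nuclear protein prothymosin alpha, had 4 upstream peaks at 29211 to 44876 bp. Peaks of 3918 and 2602 bp at the *Ptma* promoter counted by any base only. *Ndfip1*, an adaptor of NEDD4 ubiquitin ligases, had 4 upstream peaks at 25811 to 34673 bp. The *Ndfip1* promoter peak, 483 bp wide, was at another TSS inside the gene. *Hist1h2br*, a histone H2B gene of the large histone cluster, had 4 downstream peaks at 22090 to 48544 bp, and its promoter held no peak base.

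Of the genes with 3 intergenic peaks, the first by symbol were *Actr2*, *Akap12* and *Cggbp1*. *Actr2* encodes a subunit of the actin-nucleating ARP2/3 complex, and its peaks lay 3985, 24605 and 32138 bp upstream. *Akap12* encodes a scaffold for protein kinase A, and its peaks lay 11996, 16241 and 23291 bp upstream. Both promoters had a peak. *Cggbp1*, a protein that binds CGG repeats, had peaks 20990, 31420 and 33523 bp downstream and no promoter peak.

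The widest intergenic peaks after that of *Ncoa3* were nearest to *Gcnt2* (2986 bp wide, 5781 bp upstream), *Nanog* (2961 bp), *Gm11627* (2950 bp) and *Mreg* (2942 bp). *Gcnt2* encodes a glycosyltransferase, and *Mreg* the melanosome protein melanoregulin. All 4 genes had a promoter peak by the rule, which counts every TSS of a gene. Those of *Gcnt2*, at chr13:40886530-40889371 and chr13:40915772-40919581, were at other TSS inside the gene. The *Gcnt2* TSS nearest to the intergenic peak had no peak base within 1 kb.

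Genes of the pluripotency network were often the nearest gene. Of 20 pluripotency transcription factors listed, 7 were nearest to at least 1 intergenic peak (35%, Wilson interval 18.1 to 56.7%), where 3.43% of all protein-coding genes were. Together the 7 had 17 peaks: 5 for *Sall1*, 4 for *Klf5*, 2 each for *Sox2*, *Nanog* and *Tbx3*, and 1 each for *Klf2* and *Prdm14*. This list was chosen with earlier results of these data known, and its share is a description. A gene with more eligible sequence nearest to it has more room for such peaks, and *Sall1* had 78.3 kb and *Klf5* 73.2 kb. Neither this share nor those of the other lists was adjusted for that.

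*Nanog*, a homeobox factor of self-renewal, had a peak 4503 bp upstream, at chr6:122701506-122704466, and one 8184 bp downstream of its TSS. *Sox2*, the partner of POU5F1, had peaks 17857 and 20692 bp downstream, at chr3:34667968-34668555 and chr3:34670679-34671514. Both *Sox2* peaks lay inside the body of an annotated noncoding gene. *Klf2* had a peak 12078 bp downstream. *Tbx3*, a T-box factor, had one 12556 bp upstream and one 26218 bp downstream. *Prdm14*, a repressor of differentiation genes, had one 22142 bp downstream that was as narrow as the rule allowed.

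By midpoint, 3 of these 7 genes had a promoter peak (*Nanog*, *Klf2* and *Sall1*), and all 7 had one when any base within 1 kb counted. In the whole list the numbers were 13 and 20 of 20. Beside them, 33.9% of all protein-coding genes had one by midpoint and 35.7% by any base. For all nearest genes of intergenic peaks these shares were 54.5% and 61.3%. The *Sox2* promoter lay in a peak of 9909 bp with its midpoint 2329 bp from the nearest TSS. At *Tbx3* the 2 promoter peaks were 8440 and 3245 bp wide, with midpoints 1554 and 1487 bp away. At *Klf5* and *Prdm14* the peaks were 2055 and 1046 bp wide, with midpoints 1186 and 1390 bp away. The midpoint rule thus left out promoters within broad or offset peaks.

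In a list of other embryonic stem cell genes 3 of 20 were nearest genes (15%, interval 5.24 to 36%, beside 3.43% of all protein-coding genes), with 1 peak each. *Jarid2* had one 23162 bp upstream. *Utf1*, a chromatin-associated factor of undifferentiated cells, had one 5229 bp downstream. *Dppa5a*, an RNA-binding protein of pluripotent cells, had one 4713 bp downstream.

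In the LIF and STAT3 list 5 of 15 genes were nearest genes (33.3%, interval 15.2 to 58.3%, beside 3.43% of all protein-coding genes). *Il6st*, the gp130 receptor subunit, had a peak 24190 bp upstream. *Socs3*, the feedback inhibitor of the pathway, had peaks 4978 bp upstream and 5800 bp downstream. The downstream one, 2826 bp wide, held AP-1, CTCF and STAT sites, none of them in the central window. Over whole peaks, 35 of the 906 intergenic peaks held a STAT site. The kinase genes *Pim1* and *Pim3* had peaks 39595 and 7830 bp upstream, and *Klf5* is given above.

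In the Nodal and BMP list 3 of 20 genes were nearest genes (15%, beside 3.43% of all genes). All 3 had a promoter peak, as did 16 of the 20 listed genes and 54.5% of all nearest genes. The ligand gene *Nodal* had a peak 4524 bp upstream, and the receptor gene *Acvr1b* one 9873 bp upstream. *Tgif1*, a repressor of SMAD signalling, had peaks 12461 and 19657 bp upstream and 16559 bp downstream.

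The FGF and ERK list held 6 nearest genes of 18 (33.3%, interval 16.3 to 56.3%, beside 3.43% of all genes), with 1 peak each. The receptor gene *Fgfr1* had one 47504 bp upstream, and *Sos1*, the exchange factor that activates RAS, one 19054 bp upstream. The other 4 encode inhibitors of the pathway: *Dusp6* (14478 bp downstream), *Spred2* (4602 bp upstream), *Spry2* (35650 bp downstream) and *Spry4* (27239 bp upstream). *Dusp6* and *Spry4* had a promoter peak by midpoint, *Spred2* and *Spry2* by any base only, and *Fgfr1* and *Sos1* had none. The *Spry2* peak held a composite match with 2 mismatches.

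In the Wnt list 4 of 20 genes were nearest genes (20%, interval 8.07 to 41.6%, beside 3.43% of all genes). The receptor gene *Fzd7* had a peak 9346 bp upstream, and *Ctnnb1*, the gene of β-catenin, one 10224 bp upstream. *Znrf3*, a ubiquitin ligase that removes Wnt receptors, had one 32654 bp upstream. *Tcf7l2*, a transcription factor of the pathway, had peaks 12244 and 28232 bp upstream and no promoter peak.

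**Figure D3:**
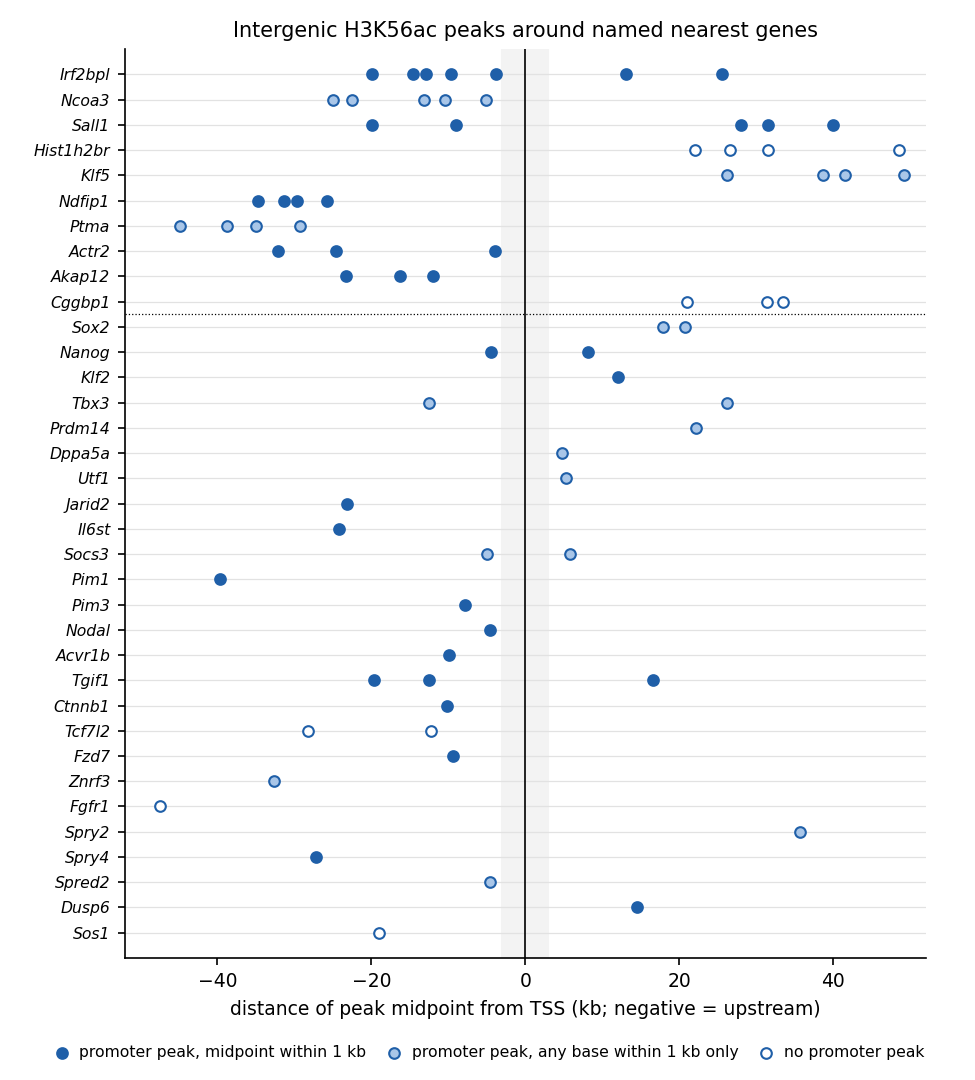
Position of each intergenic peak as signed distance of its midpoint from the TSS of its nearest gene in kb (horizontal axis, upstream negative) for the 10 genes with most peaks (above the dotted line) and other listed genes (below it). Dark points mark genes with a promoter peak by midpoint, pale points by any base within 1 kb only, and open points genes with none; the grey band is the zone within 3 kb of the TSS.

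Lists for other cell types had 1 nearest gene in all. Of 25 transcription factors of early lineages, *Sox1*, a factor of neural progenitors, was the only nearest gene (4%, beside 3.43% of all protein-coding genes), with a peak 44386 bp downstream of its TSS. None of 14 muscle genes and none of 14 fibroblast genes, the list for the feeder cells, was a nearest gene. A count of 0 of 14 allows a share of up to 21.4%. Promoter peaks by midpoint were on 1 of the 14 muscle genes, 0 of the 14 fibroblast genes and 0 of the 25 lineage factors, where 33.9% of all protein-coding genes had one. Among the 7 sirtuin genes, *Sirt4* was the only nearest gene (14.3%, interval 2.57 to 51.3%, beside 3.43% of all protein-coding genes). Its peak lay 4310 bp downstream. All 7 sirtuin genes had a promoter peak.

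Most intergenic peaks were alone, and some came in chains. Another distal peak, of any class more than 3 kb from a TSS, had its midpoint within 10 kb of 256 intergenic peaks (28.3%), while 650 had none. For remote peaks the number was 75 of 308 (24.4%), a difference of 3.91 points (interval -1.92 to 9.29; two-sided Fisher's exact test, adjusted p = 0.535). There were 35 chains of 3 or more distal peaks with an intergenic member. The longest were 8 peaks at *Sall1* (3 of them intergenic peaks as defined here), 7 at *Ptma* and *Tex44* (5), 6 at *Irf2bpl* (5) and 6 upstream of *Ncoa3* (5). Chains of 5 lay at *Gnpda1* and *Ndfip1* (5), *Klf5* (3), *Mreg* and *Pecr* (2), and *Frmd8* (2).

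Density also differed between chromosomes. Autosomes held 898 intergenic peaks, or 2.08 per Mb of eligible sequence (Poisson interval 1.94 to 2.22), from 1.41 on chromosome 14 to 3.57 on chromosome 11. The X chromosome held 8, or 0.223 per Mb (0.0962 to 0.439), an interval that lay below those of all the autosomes. Densities by chromosome were taken for intergenic peaks alone. They were not adjusted for mapping or for chromosome copies per cell, and the part of either was not tested. The X-linked nearest genes, named because they were so few and after their values were seen, were *Ddx3x* and *Taf1* with 2 peaks each, and *Usp9x*, *Nyx*, *Eif2s3x* and *Cldn34c4* with 1 each. No intergenic peak lay on the Y chromosome, with an upper limit of 0.306 per Mb.

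**Figure D4:**
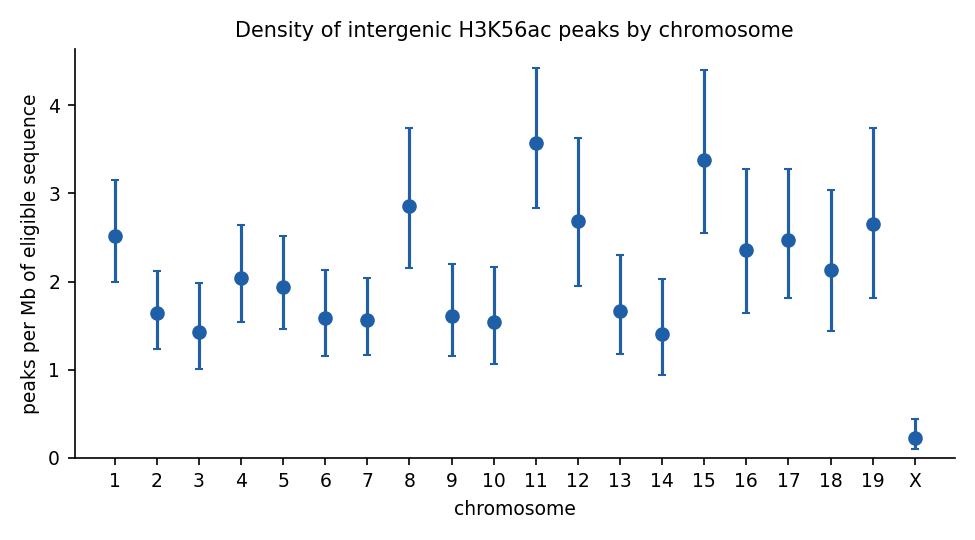
Intergenic H3K56ac peaks per Mb of eligible sequence (vertical axis) on each autosome and on the X chromosome (horizontal axis), with 95% Poisson intervals as bars. The autosomes lie between 1.41 and 3.57 per Mb and the X chromosome at 0.223.

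The intergenic peaks were richer in G and C and poorer in repeats than eligible sequence as a whole, but most were not CpG islands. Mean GC content of the central window was 49.7% ± 6.14 (SD, n = 906), against 42.6% in the tiles, 48.2% in remote peaks, 48.3% in intronic peaks and 56.4% in promoter peaks. A centre with at least 50% GC and a CpG ratio over 0.6 was called CpG-rich. That applied to 63 intergenic peaks (6.95%) and 0.470% of tiles.

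Promoter peaks were CpG-rich in 45.9% of cases, 38.9 points more than intergenic peaks (two-sided Fisher's exact test, adjusted p = 2.01e-131). Remote peaks were CpG-rich in 2.92%, 4.03 points fewer than intergenic peaks (interval 1.09 to 6.33; two-sided Fisher's exact test, adjusted p = 0.0403), a call that was lost in 5 of 6 alternatives. At least 50% of bases were repeats in 6.40% of intergenic peaks, in 10.4% of remote peaks (two-sided Fisher's exact test, adjusted p = 0.095) and in 35.7% of tiles. The repeat share was taken over whole peaks and over tiles, which differ in length.

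AP-1 was the motif that separated intergenic from promoter peaks most clearly. Its site TGACTCA (or TGAGTCA, the same site on the other strand) was in the central window of 72 intergenic peaks (7.95%, Wilson interval 6.36 to 9.89%). It was in 3.76% of promoter peaks (odds ratio 2.21 by Fisher's exact test, adjusted p = 1.72e-06), a call kept in every alternative run. Remote peaks held it in 10.1% and intronic peaks in 6.47% (two-sided Fisher's exact tests, adjusted p = 0.542 and 0.538). It was in 5.18% of tiles, or 5.57% of tiles weighted to the GC content of the peaks. Over whole peaks, 173 held at least 1 site.

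In the central window, KLF and NRF1 sites were less frequent than in promoter peaks. The KLF site GGGCGTGGC or GGGTGTGGC was in that window of 8 intergenic peaks (0.883%) and of 2.69% of promoter peaks (odds ratio 0.322 by Fisher's exact test, adjusted p = 0.00435). The NRF1 site GCGCATGCG, a motif of housekeeping promoters, was in that window of 3 (0.331%) and of 1.30% (odds ratio 0.253 by Fisher's exact test, adjusted p = 0.0403). GC content moved with both: within GC quintiles the odds ratios were 0.606 and 0.562 and neither call held. Over all 8 alternatives the KLF call was lost in 3 and the NRF1 call in 5. Shares in tiles were 0.646% for KLF and 0.0472% for NRF1, or 1.33% and 0.112% weighted by GC, which put the KLF share of the intergenic peaks below that of the tiles in place of above it. Over whole peaks, 48 intergenic peaks held a KLF site and 12 an NRF1 site.

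The pluripotency motifs were rare in the central window at this level of stringency, and the shares that follow are for that window. The octamer was in 1.10% of intergenic peaks and in 2.68% of tiles (1.64% weighted by GC). The composite was in 0.331%, beside 0.440% of tiles (0.261% weighted by GC). The ESRRB site was in 1.10% (tiles 0.790%) and the PRDM14 site in 0.221% (tiles 0.237%). The STAT site TTCCNGGAA was in 1.66% of intergenic peaks and 0.877% of tiles. The CTCF core, CCACNAGGG or CCAGNAGGG, was in 3.42% (tiles 2.42%, or 4.40% weighted by GC), and the TCF and LEF site ATCAAAGG in 1.55% (tiles 1.70%, or 1.33% weighted by GC). For the composite, CTCF and TCF the order of peaks and tiles thus turned with the weighting. All were searched on both strands. Over whole peaks, the octamer was in 46 intergenic peaks, the composite in 15, the ESRRB site in 37 and the PRDM14 site in 8. STAT sites were in 35, CTCF cores in 100 and TCF and LEF sites in 41. An exact match shows only that these letters are present, and its absence that they are not in the window.

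In the central window, no motif passed the adjusted threshold between intergenic and remote peaks or between intergenic and intronic peaks by Fisher's exact test. At an unadjusted p under 0.05 there was 1 against remote peaks and 0 against intronic peaks. The 1 was STAT, in 1.66% of intergenic and 3.90% of remote peaks, a difference of -2.24 points (interval -5.10 to -0.277; two-sided Fisher's exact test, adjusted p = 0.147). For AP-1 against intronic peaks the interval of the difference was -0.939 to 3.90 points.

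**Figure D5:**
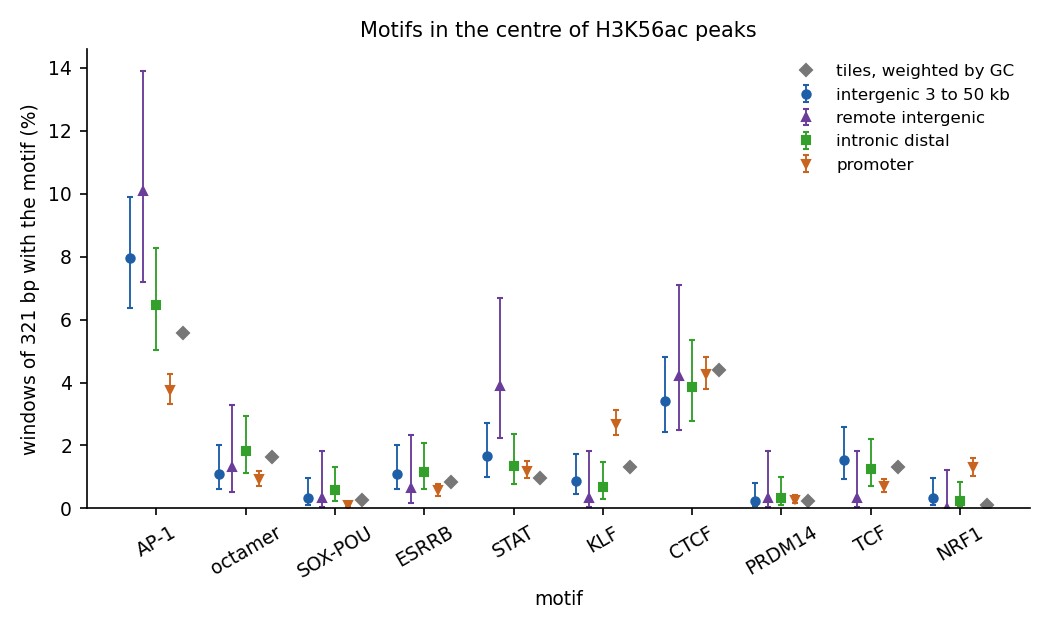
Percentage of central windows (160 bp on either side of the midpoint) that hold each of the 10 motifs (horizontal axis) in intergenic (circles), remote (upward triangles), intronic (squares) and promoter peaks (downward triangles), with 95% Wilson intervals, and in tiles weighted to the GC content of the peaks (diamonds). AP-1 is the most frequent motif in the intergenic peaks, at 7.95%, and lies above the promoter peaks at 3.76%.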

How the data were processed

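The deposited file holds positions of merged H3K56ac peaks on mm10, with no value per library. According to the methods of the study, the authors trimmed reads with Trim Galore, kept reads with 1 reportable alignment by bowtie, removed duplicates by Picard and called peaks in MACS2 at a q-value (adjusted p-value) limit of 0.05. They left out ENCODE blacklist regions and merged overlapping peaks. Unique alignment can leave repeats under-represented, and merging can widen peaks. The Scramble and Sirt6 KD libraries, replicates and input were therefore not compared, and depth was not analysed here.

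Starts counted from 0 were printed from 1. Midpoints were set against GENCODE M21, motifs were read from GRCm38 on both strands, and all 1497212 tiles of eligible sequence without unknown bases, each as long as the central window, were measured alike. Members, gene lists, motifs and tests were chosen with earlier results of these data known. Named genes are the 10 nearest to most members (ties by symbol), every listed gene nearest to a member (the ribosomal protein list is not reported here), and the nearest genes of the 5 widest members and of composite matches. Shares were compared between peak classes of the same width limits by two-sided Fisher's exact tests (scipy 1.17.1), adjusted by Benjamini-Hochberg over 36 tests, with Wilson intervals for shares and Newcombe intervals for differences. Alternatives changed transcripts, distance and width limits, the promoter rule, windows and thresholds, kept 1 peak per gene, or stratified by GC. The search was tested on simulated data and found all 2000 planted motif copies. Python 3.11.15, numpy 2.4.6, pandas 2.3.3, statsmodels 0.14.6 and matplotlib 3.10.9 were used.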

Additional observations from a re-analysis of the deposited data

How the results depend on the processing

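No paired analysis was possible because positions merged over all libraries hold no value for any 1 of them. The higher share of nearest genes with a promoter peak than in remote peaks (11.9 points) and the lower share of CpG-rich centres than in promoter peaks kept their direction and their call in every alternative run. The number of members was 900 with whole peaks outside gene bodies, 883 with basic transcripts and 800 outside the bodies of all genes.

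The difference from intronic peaks in that share (-6.36 points) no longer passed the adjusted threshold with basic transcripts (-2.27), at 3 to 20 kb (-5.11), at any width (-4.89), with 1 peak per nearest gene (-4.72), with any peak base within 1 kb (-3.07), with midpoints within 500 bp (-3.04) or for CpG-rich nearest genes alone (-2.68, added after seeing the data). The difference in CpG-rich centres from remote peaks (4.03 points) did not pass with basic transcripts (3.81), at 5 to 50 kb (3.76), at 3 to 20 kb (4.40), with 1 peak per nearest gene (2.85) or over whole peaks (1.82). At any width the difference in repeat-rich peaks from remote peaks (-17.4 points) and in neighbours within 10 kb (9.77 points) passed, and neither passed as reported. The neighbour difference turned to -0.779 at 3 to 20 kb, and the repeat difference to 7.33 when at least 25% of bases sufficed.

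Motifs that differed from promoter peaks numbered 3 as reported, 5 at any width, 5 in the central 1000 bp (without KLF), 1 in the central 200 bp and 1 within GC quintiles. It was 2, without NRF1, at 5 to 50 kb, at 3 to 20 kb and with 1 peak per nearest gene. Against remote peaks the number went from 0 to 1 in the central 1000 bp and to 1 within GC quintiles, and it was STAT in both. The cause of these changes was not tested. Weighting tiles by GC was also added after seeing the data. The file gives no depth, so the limit that depth sets is unknown.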

Other observations

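Among gene families counted by name, olfactory receptor genes gave 5 nearest genes of 1135 (0.441%, beside 3.43% of all protein-coding genes), with 6 intergenic peaks. A promoter peak was on 0 of the 1135, beside 33.9% of all protein-coding genes. They were *Olfr229*, *Olfr221*, *Olfr761*, *Olfr1368* and, with 2 peaks, *Olfr1423*. Of the 906 intergenic peaks, 106 (11.7%) had their midpoint in the body of a noncoding gene, as did 10.2% of tiles.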
